A study of Homo sapiens with 12 samples.

Results

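The genes described here are the long intergenic non-coding RNAs (lincRNAs) that were expressed in at least part of the series: every row with the Gene Type lincRNA and an RPKM (reads per kilobase of gene model, scaled to library size) of at least 2 in at least 2 of the 12 libraries. This rule was met by 347 of the 3819 lincRNA rows, or 9.09%, in a list of 32152 genes. The lincRNAs were thus chosen by the same RPKM values that are described, so the levels below describe the choice and support nothing by themselves. Just inside the threshold, the second highest library of LINC00702 had an RPKM of 2.01 and that of RP11-360F5.3 had 2.02, and just outside it CTB-113I20.2 reached 1.997 and RP11-244M2.1 1.97. In GENCODE 29, a later annotation in which genes were matched by identifier without its version number, 307 of the 347 genes are still typed lincRNA, 29 carry another type, of which 5 are protein coding and 11 are pseudogenes, and 11 were not matched.

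lincRNAs are transcribed by RNA polymerase II, are usually spliced and polyadenylated, and do not overlap protein-coding exons. They tend to be less abundant and more restricted to a cell type than messenger RNAs. Some act as RNAs, such as MALAT1 in nuclear speckles, NEAT1 as the scaffold of paraspeckles and NORAD as a sponge of Pumilio proteins, some carry small nucleolar RNAs or microRNAs in their introns and exons, and for many no function is known.

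RNA came from MDA-MB-231 and Hs-578T, 2 established triple-negative breast cancer cell lines, which lack the estrogen and progesterone receptors and amplified HER2. Each line gave 2 libraries of parental cells, 2 labelled ERK5-ko, from cells treated with Cas9 and guides to exons of MAPK7, the gene of the kinase ERK5, and 2 labelled MEK5DD, after a MEK5 mutant that is always active and so phosphorylates ERK5. The MDA-MB-231 ERK5-ko line came from the only clone that survived sorting, and the Hs-578T ERK5-ko lines came from clones grown from single cells. The MDA-MB-231 parental libraries were labelled as passage 29 and 30, ERK5-ko as 7 and 8 and MEK5DD as 10 and 11, and the Hs-578T parental libraries as 83 and 84, ERK5-ko as 8 and 9 and MEK5DD as 8 and 9. Passage, cloning and label therefore cannot be told apart. No label names lines made separately, so the p-values rest on the spread between 2 successive passages, pooled over the 6 groups of both lines. The median absolute log2 difference between replicates of the lincRNAs was 0.106 (parental), 0.131 (ERK5-ko) and 0.108 (MEK5DD) in MDA-MB-231. In Hs-578T it was 0.212, 0.141 and 0.246 in the same order, so Hs-578T tests partly used the smaller spread of MDA-MB-231.

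Library totals lay between 20248162 and 27791195 reads, and the 347 lincRNAs together took 0.197% to 0.289% of a library's reads. MAPK7 RNA was not lower in libraries labelled ERK5-ko. In MDA-MB-231 it averaged an RPKM of 13.8 ± 0.699 (SD, n = 2) in parental and 17.0 ± 1.04 in ERK5-ko libraries (adjusted p = 0.0755, limma), and in Hs-578T it was 14.97 ± 1.42 against 18.0 ± 0.268 (adjusted p = 0.0611). A value over the whole gene does not show a shifted reading frame, so it checks the label neither way. The paper's evidence for the knockout is a Western blot, in which ERK5 protein was far lower in ERK5-ko than in parental cells of both lines. MAP2K5, the gene of MEK5, was at 186 ± 3.31 in MDA-MB-231 MEK5DD against 13.2 ± 0.496 in parental libraries, and at 22.5 ± 1.81 against 15.8 ± 1.65 in Hs-578T. ESR1 stayed at or under an RPKM of 0.12 and PGR at or under 0.348 in every library, ERBB2 lay between 27.8 and 56.8 with no sample for scale, VIM was at 1598 or more, and the leukocyte gene PTPRC was at or under 0.396. The endothelial marker PECAM1 was at 0.768 ± 0.104 in parental MDA-MB-231 and 5.55 ± 0.232 in parental Hs-578T libraries. Of the other mesenchymal markers, FN1 was at 48.0 ± 5.07 and 2562 ± 1012 and CD44 at 888 ± 37.0 and 1009 ± 55.4 in the same groups. EPCAM and KRT8, epithelial markers, were higher in MDA-MB-231 (EPCAM 18.98 ± 0.786, KRT8 710.3 ± 47.7 in parental libraries) than in Hs-578T (EPCAM 0.0600 ± 0.0245, KRT8 48.8 ± 2.71). The values are of bulk RNA, in which fewer cells with an RNA and less RNA per cell cannot be told apart.

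The promoters of 6 lincRNAs are shown because these genes are among the ERK5-ko results below: LINC01615 and SNHG18 had the largest rise and fall in MDA-MB-231, RP11-549K20.1 and RP11-175K6.1 were among the most raised and most lowered in Hs-578T, and AC133644.2 and RP11-1008C21.2 were lower in ERK5-ko libraries of both lines. RP11-549K20.1 met the rule of choice through Hs-578T ERK5-ko libraries alone and RP11-175K6.1 through Hs-578T parental libraries alone. Their rise and fall were thus built into the choice. Each line holds 300 bases of RefSeq GRCh38.p14, from 250 before to 50 after the annotated start, 5′ to 3′ on the gene's strand. Capitals mark an AP-1 motif (TGACTCA or TGAGTCA) or a GC box (GGGCGG) on either strand. LINC01615, listed under a clone name in the table, is at chr6:169162940-169163239, minus strand. SNHG18 is at chr5:9545950-9546249, plus strand. RP11-549K20.1 is LINC02228, at chr5:25190607-25190906, minus strand. RP11-175K6.1 is LINC02202, at chr5:159100233-159100532, plus strand. AC133644.2 is LINC01943, at chr2:87459047-87459346, minus strand. RP11-1008C21.2 is LINC01852, at chr15:38072941-38073240, minus strand.
LINC01615: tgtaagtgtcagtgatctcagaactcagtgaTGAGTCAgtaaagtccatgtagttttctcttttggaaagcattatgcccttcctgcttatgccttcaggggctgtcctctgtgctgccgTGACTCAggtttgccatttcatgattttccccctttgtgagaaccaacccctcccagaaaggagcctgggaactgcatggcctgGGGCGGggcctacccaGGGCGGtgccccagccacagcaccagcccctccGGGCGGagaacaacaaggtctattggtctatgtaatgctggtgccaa
SNHG18: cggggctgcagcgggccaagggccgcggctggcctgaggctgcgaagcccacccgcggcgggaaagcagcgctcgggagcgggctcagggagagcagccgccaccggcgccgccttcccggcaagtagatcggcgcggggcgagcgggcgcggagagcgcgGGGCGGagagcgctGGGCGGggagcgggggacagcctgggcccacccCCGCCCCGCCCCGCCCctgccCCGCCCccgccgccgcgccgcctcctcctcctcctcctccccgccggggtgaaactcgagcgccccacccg
RP11-549K20.1: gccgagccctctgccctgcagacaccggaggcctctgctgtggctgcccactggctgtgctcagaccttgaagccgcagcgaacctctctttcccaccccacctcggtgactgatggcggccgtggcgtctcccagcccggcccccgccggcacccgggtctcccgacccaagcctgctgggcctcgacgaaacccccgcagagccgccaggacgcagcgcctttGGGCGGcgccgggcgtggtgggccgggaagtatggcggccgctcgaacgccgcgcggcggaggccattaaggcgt
RP11-175K6.1: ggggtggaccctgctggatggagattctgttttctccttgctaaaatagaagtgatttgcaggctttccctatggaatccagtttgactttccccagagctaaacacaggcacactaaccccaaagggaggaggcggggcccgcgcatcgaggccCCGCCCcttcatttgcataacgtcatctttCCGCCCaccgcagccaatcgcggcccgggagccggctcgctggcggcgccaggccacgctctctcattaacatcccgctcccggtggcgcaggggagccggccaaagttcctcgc
AC133644.2: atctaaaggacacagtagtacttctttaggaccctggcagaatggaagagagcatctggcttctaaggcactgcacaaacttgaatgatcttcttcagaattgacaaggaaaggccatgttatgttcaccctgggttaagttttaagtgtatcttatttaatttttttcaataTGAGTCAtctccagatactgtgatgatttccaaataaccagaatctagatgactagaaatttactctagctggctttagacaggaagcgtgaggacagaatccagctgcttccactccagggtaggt
RP11-1008C21.2: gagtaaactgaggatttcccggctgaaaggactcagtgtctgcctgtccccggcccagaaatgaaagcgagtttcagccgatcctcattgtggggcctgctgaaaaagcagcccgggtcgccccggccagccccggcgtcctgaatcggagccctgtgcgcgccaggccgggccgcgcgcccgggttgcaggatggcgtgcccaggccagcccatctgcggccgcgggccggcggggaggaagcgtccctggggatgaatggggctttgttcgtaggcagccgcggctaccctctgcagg

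The window of LINC01615 held 2 AP-1 motifs and 3 GC boxes, that of SNHG18 6 GC boxes in 81.3% GC, that of RP11-549K20.1 1 GC box, that of RP11-175K6.1 2 GC boxes and that of AC133644.2 1 AP-1 motif, and that of RP11-1008C21.2 held none of the 6 motifs searched. A promoter window was matched to 148 of the 347 lincRNAs. An AP-1 motif was in 15 of the 148 windows (10.1%) and in 4.95% of all 35116 windows of this length, and a GC box in 50.7% and 45.0%. The shares were 8.78% and 11.5% for a TATA box (TATAAA), 7.43% and 7.26% for an E-box (CACGTG), 12.2% and 14.0% for the TEAD motif (GGAATG), and 2.03% and 2.99% for the MEF2 consensus, the site of transcription factors that ERK5 is known to phosphorylate. These are matches of letters, not binding sites.

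Most expressed lincRNAs were scarce. The median of the 347 mean RPKM values was 2.33, against 18.4 for the 12426 protein-coding rows that met the same rule (70.3% of all protein-coding rows), 41 lincRNAs had a mean above 10 and 150 had a mean under 2. The lowest count behind a lincRNA in its highest library was 19 reads and the median was 142 reads. Only 70 of the 347 were at an RPKM of 2 or more in all 12 libraries, while 130 reached 2 in both lines, 139 in Hs-578T alone and 78 in MDA-MB-231 alone. In 72 of them no MDA-MB-231 library held more than 3 reads, and in 21 no Hs-578T library did. A group of 67 met the rule through a single group of libraries, 34 of them through Hs-578T ERK5-ko and 17 through MDA-MB-231 MEK5DD, so these had to differ between groups.

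The 10 most abundant lincRNAs are shown by library in the plot of highest means. LINC00152 (CYTOR, ENSG00000222041.10, chromosome 2, 87455368 to 87606805, plus strand), a cytoplasmic RNA often raised in tumours, averaged an RPKM of 104 ± 0.373 (SD, n = 2) in parental MDA-MB-231 and 68.4 ± 19.5 in parental Hs-578T libraries. MIR4435-2HG, a microRNA host gene that is a near-identical copy of LINC00152, had 102 ± 0.754 and 45.4 ± 8.68. How the authors' counting split reads between these copies is not given in the sources used here, so both values are uncertain. LINC00657 (NORAD), which binds Pumilio proteins and guards chromosome stability, had 91.3 ± 8.09 and 62.1 ± 12.9, and SNHG8, which carries a small nucleolar RNA, had 53.2 ± 0.218 and 44.0 ± 7.97. Each of these 4 RNAs stayed above an RPKM of 38 in all 12 libraries.

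The other members of the 10 were MALAT1, LINC01419, EBLN3, LINC00998, LINC01605 and LINC01444. EBLN3, named for its likeness to a bornavirus gene, had 51.1 ± 3.28 in parental MDA-MB-231 and 36.3 ± 2.26 in parental Hs-578T libraries, and LINC00998 had 34.1 ± 0.0624 and 46.8 ± 4.60. LINC01605 had 17.1 ± 0.430 and 36.3 ± 3.18, and LINC01444 had 8.66 ± 1.64 and 36.0 ± 6.93, so both differed between the parental lines by more than the spread of their replicates (adjusted p = 5e-06 and 5.9e-06, limma).

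**Figure D1:**
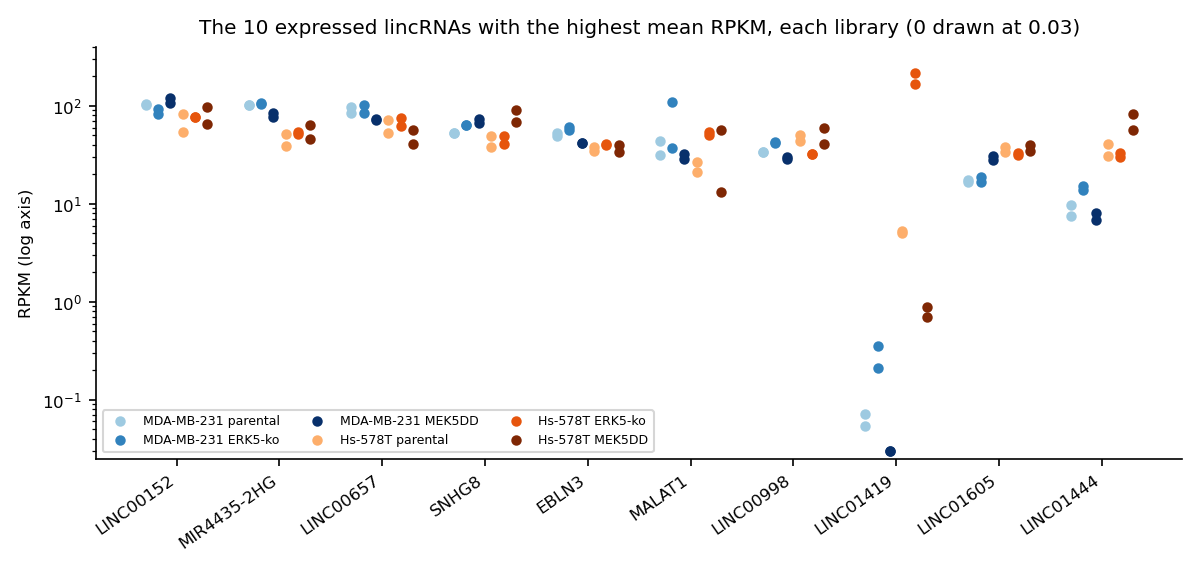
RPKM (log axis) of the 10 lincRNAs with the highest mean, 1 point per library, 2 libraries per group, coloured by cell line and label, with values of 0 drawn at 0.03. Most of the 10 stay within 1 order of magnitude, while LINC01419 runs from 0 in MDA-MB-231 MEK5DD to 166 and 215 in Hs-578T ERK5-ko.

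MALAT1 varied widely between replicates. Its RPKM was 31.3 and 43.6 in MDA-MB-231 parental, 37.3 and 109 in ERK5-ko and 28.6 and 32.4 in MEK5DD libraries, and 27.1 and 21.3, 53.7 and 49.96 and 56.8 and 13.3 in the same groups of Hs-578T. The 2 Hs-578T MEK5DD libraries thus differed more from each other than the Hs-578T group means did. NEAT1, the paraspeckle scaffold, gave 24.5 and 41.7 in MDA-MB-231 parental, 42.7 and 33.9 in ERK5-ko and 9.61 and 12.2 in MEK5DD libraries, so that both MEK5DD libraries lay below the other 4. Its fall in MEK5DD passed the test, with a log2 fold change of -1.52 (SE 0.40, adjusted p = 0.0138, limma), and its Hs-578T values of 9.94 and 7.55, 13.0 and 14.99 and 13.0 and 4.33 passed in neither comparison with parental libraries. The authors' RPKM divided reads by a mean transcript length, which was 1004 bases for MALAT1 and 5217 for NEAT1 and shorter than the merged exons, so levels between these genes depend on that length while comparisons within a gene do not.

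More lincRNAs passed the test between the parental lines than in any comparison within a line. Each comparison was tested with limma on log2(RPKM + 0.5) over all 16857 genes of every type that passed a filter on low values, and a gene passed at a Benjamini-Hochberg adjusted p under 0.05 over all of them. All 347 lincRNAs passed the filter. Between the parental lines, 113 lincRNAs were higher in MDA-MB-231 and 186 were higher in Hs-578T, which is 32.6% and 53.6% of the 347, beside 41.9% and 31.8% of all genes tested. With the study's fold thresholds added to the test, 104 were above 1.5-fold and 142 under 0.5-fold (MDA-MB-231 over Hs-578T), beside 31.7% and 16.3%. The median log2 difference (MDA-MB-231 minus Hs-578T) was -0.59 over the lincRNAs and 0.13 over all genes tested, and scaling by median ratios would shift the median log2 difference by -0.24. The split is not independent of the rule of choice, since 139 of the lincRNAs reached its threshold in Hs-578T alone and 78 in MDA-MB-231 alone.

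GS1-600G8.5 (ENSG00000235385.1, chromosome X, 13266048 to 13303452, minus strand) was at 58.6 and 47.3 in the Hs-578T parental libraries and at 0.167 and 0.0297 in those of MDA-MB-231, a log2 fold change of -6.48 (SE 0.20, adjusted p = 6e-10, limma). LINC00958, which lies next to TEAD1, was at 38.3 and 35.6 in Hs-578T parental and at 3 reads or fewer in every MDA-MB-231 parental library, at least 266-fold higher in Hs-578T against a floor of 3 reads per library. C22orf34 was at 25.5 and 24.98 in Hs-578T and 0.145 and 0.103 in MDA-MB-231. In the other direction, LINC01224 was at 21.5 and 22.23 in MDA-MB-231 against 1.98 and 1.28 in Hs-578T (adjusted p = 1.05e-08, limma). RP3-522D1.1 was at 6.27 and 6.71 in MDA-MB-231 parental libraries and AC009299.3 at 5.94 and 5.51. Neither had a read in any Hs-578T library, so they were at least 25.2-fold and 64.2-fold higher in MDA-MB-231 against the same floor, which covers counting error only.

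In MDA-MB-231, the lincRNAs that passed the test between ERK5-ko and parental libraries were mostly lower, and falls also outnumbered rises over all genes tested. 10 were higher and 36 lower, which is 2.88% and 10.4% of the 347, beside 5.37% and 8.33% of all genes tested. With the fold thresholds, 8 were higher by over 1.5-fold and 10 under 0.5-fold, beside 2.53% and 1.06% of all genes. The median log2 fold change was -0.01 over the lincRNAs and -0.03 over all genes tested. Of the passing genes, 3 of the higher and 10 of the lower met the rule of choice through a single group of libraries, and among the other 280 lincRNAs the counts were 7 and 26 (2.5% and 9.29%). These counts rested on both replicates: without 1 of the 4 MDA-MB-231 parental and ERK5-ko libraries, 1 to 4 were higher and 16 to 20 lower.

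SNHG18 (ENSG00000250786.1, chromosome 5, 9546200 to 9550609, plus strand), host gene of a small nucleolar RNA, fell most. Its RPKM was 3.10 and 3.33 in parental and 0.269 and 0.395 in ERK5-ko libraries, with 7.57 and 6.43 in MEK5DD libraries. The 3 groups did not overlap, and ERK5-ko was lowest and MEK5DD highest. Against parental libraries the ERK5-ko log2 fold change was -2.16 (SE 0.15, adjusted p = 2.85e-05, limma). SNHG18 starts 125 bases from the start of SEMA5A, a semaphorin gene on the opposite strand, whose log2 fold change was -1.37 (adjusted p = 0.00914, limma).

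LINC01615 (ENSG00000223485.1, chromosome 6, 169158092 to 169162924, minus strand) rose most, from 3.90 and 4.45 in parental to 17.8 and 14.9 in ERK5-ko libraries, a log2 fold change of 1.85 (SE 0.13, adjusted p = 2.9e-05, limma). Its nearest protein-coding gene, 52856 bases away, is THBS2, which encodes the matrix glycoprotein thrombospondin 2 and had a log2 fold change of 3.21 (adjusted p = 8.57e-06). LINC01411 was at 6.57 and 7.56 in parental and 16.9 and 14.1 in ERK5-ko libraries (log2 fold change 1.08, adjusted p = 0.0178, limma). RP11-66B24.2, 15958 bases from ALDH1A3, an aldehyde dehydrogenase gene that also rose (0.93), went from 1.56 and 1.75 to 2.68 and 3.49. AC005276.1, LINC00648 and RP11-356J5.12 were the other rises named by size, with log2 fold changes of 0.96, 0.94 and 0.73. Except for LINC01615, each of these rises was lost without at least 1 library of the 2 groups.

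Among the falls, RP11-221J22.2 (ENSG00000241280.1, chromosome 3, 101960358 to 101997926, plus strand) went from 2.51 and 2.05 in parental to 0.371 and 0.537 in ERK5-ko libraries (log2 fold change -1.54, SE 0.15, adjusted p = 0.000189, limma). The overlapping RP11-221J22.1 had a log2 fold change of -1.25, and reads of the 2 rows may be shared. LINC00960 went from 2.95 and 3.11 to 0.616 and 0.905 (adjusted p = 0.000104), AC068580.7 from 4.82 and 4.82 to 1.32 and 1.67 (adjusted p = 0.000226) and RP5-907D15.4 from 3.60 and 4.51 to 1.56 and 1.24 (adjusted p = 0.000647). SFTA1P, a pseudogene of a surfactant-associated gene, went from 7.86 and 8.81 to 3.14 and 2.57 (adjusted p = 0.0122), a call that was lost without any 1 of those 4 libraries.

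LINC00960 and both RP11-221J22 rows lie on chromosome 3, where genes of all types were lower in MDA-MB-231 ERK5-ko libraries. Of 21 lincRNAs there 0 were higher and 6 lower, with a median log2 fold change of -0.48, and 27.4% of the 910 other genes tested were lower, with a median of -0.25. The other genes that start in the first 90 Mb had a median of -0.35 (36.2% of 436 lower) and those beyond 160 Mb -0.39 (39.1% of 174), while those between 110 and 160 Mb had a median of -0.03 (3.20% of 250). Between 100 and 110 Mb, where the RP11-221J22 rows lie, the median was -0.36 (40.7% of 27 lower). Between 90 and 100 Mb it was 0 (17.4% of 23 lower). None of the 4 lincRNAs between 110 and 160 Mb passed. The remaining chromosome 3 lincRNAs that fell were LINC00969 (-0.99), SUCLG2-AS1 (-0.91) and RP4-555D20.4 (-0.67). The part of the chromosome-wide values in these falls was not tested. SNHG18 lies on chromosome 5, where the median of the other genes was -0.02. The windows, and the chromosomes named here and below, were chosen after their values were seen.

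In Hs-578T, more lincRNAs passed between ERK5-ko and parental libraries than in MDA-MB-231, as did more of all genes tested. 89 were higher and 71 lower, 25.6% and 20.5% of the 347, beside 17.6% and 17.9% of all genes tested. With the fold thresholds, 71 were above 1.5-fold and 19 under 0.5-fold, beside 9.33% and 3.19% of all genes. Of those that passed, 38 of the higher and 7 of the lower met the rule through a single group, most of them through this ERK5-ko group itself. Among the other 280 lincRNAs the counts were 51 and 64 (18.2% and 22.9%), with the higher share near that of all genes. The lincRNAs left out were picked by the same RPKM values, 34 through this ERK5-ko group and 4 through the parental group. Leaving them out thus removed mostly rises, so neither set of counts shows which direction prevails. The lincRNAs took 0.277% ± 0.0163 (SD, n = 2) of the reads in ERK5-ko, 0.227% ± 0.00600 in parental and 0.211% ± 0.0190 in MEK5DD libraries of Hs-578T. Fitted on the 6 libraries of the line alone, 54 were higher and 36 lower. Without the second ERK5-ko library, 59 were higher and 35 lower, and without the first parental library 44 were lower.

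**Figure D2:**
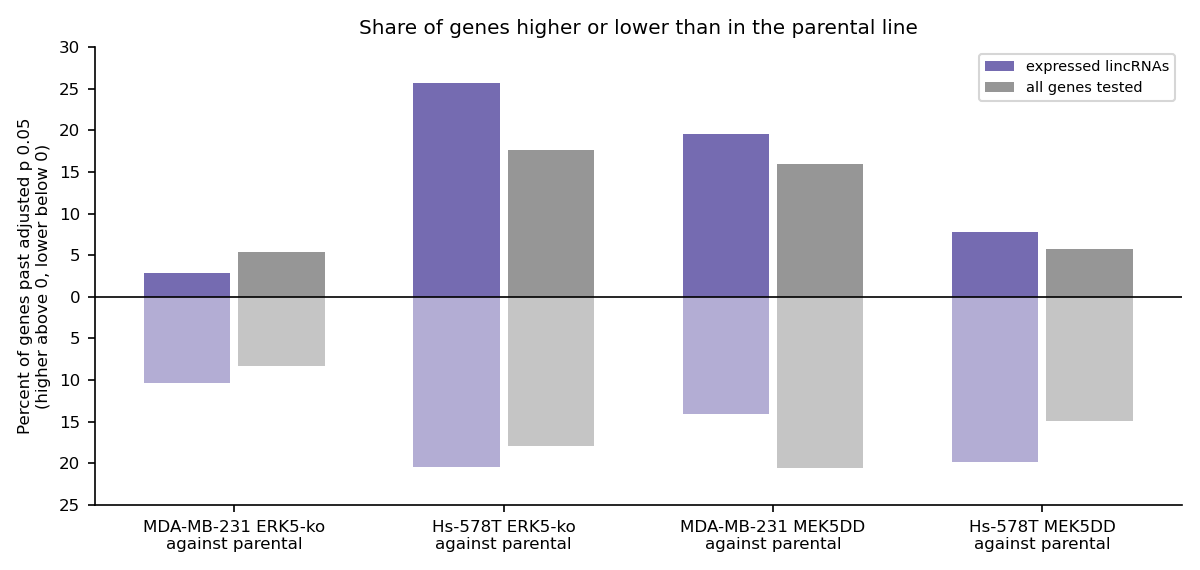
Percent of the 347 expressed lincRNAs (purple) and of all 16857 genes tested (grey) that were higher (bars above 0) or lower (bars below 0, paler) at an adjusted p under 0.05 in each comparison with the parental line. The ERK5-ko change in Hs-578T has the tallest bars for lincRNAs, 25.6% higher and 20.5% lower, and that in MDA-MB-231 has the shortest bar of higher lincRNAs, 2.88%.

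LINC01419 (ENSG00000253898.1, chromosome 8, 83403758 to 83408900, plus strand) rose most and became the most abundant lincRNA of these libraries. Its RPKM was 5.04 and 5.34 in parental, 166 and 215 in ERK5-ko and 0.878 and 0.706 in MEK5DD libraries, and at or under 0.35 in all MDA-MB-231 libraries. The Hs-578T groups did not overlap, and ERK5-ko and MEK5DD lay on opposite sides of the parental libraries. Its ERK5-ko log2 fold change was 5.06 (SE 0.15, adjusted p = 3.83e-08, limma). LINC01608, also on chromosome 8, went from 1.92 and 2.65 to 20.0 and 23.2 (log2 fold change 2.997, adjusted p = 1.23e-06). RP11-549K20.1 (ENSG00000251273.1, chromosome 5, 25126305 to 25190656, minus strand), with the GC-rich promoter given earlier, went from 0.248 and 0.456 to 6.41 and 8.43, a log2 fold change of 3.22 (SE 0.22, adjusted p = 5.68e-06, limma). RP11-549K20.1 met the rule of choice through Hs-578T ERK5-ko libraries alone, so it had to be higher there. RP11-75N6.3 on chromosome 13 had no read in the parental libraries and 3.37 and 4.03 in ERK5-ko libraries, at least 8.79-fold higher against the floor of 3 reads per library.

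Chromosome 21 held 8 of the risen lincRNAs among its 14, and 7 of the 8 expressed lincRNAs in its first 25 Mb rose. Of the 8, AP000431.2, LINC01425, MIR99AHG, AF241725.6 and AL133493.2 met the rule of choice through Hs-578T ERK5-ko libraries alone and had to be high there, so the counts say nothing about the chromosome. AP000431.2 (ENSG00000229289.1, chromosome 21, 19130523 to 19134423, plus strand) had no read in any library other than Hs-578T ERK5-ko, where its RPKM was 5.14 and 5.66, at least 18.3-fold higher than in parental libraries against the floor. LINC01425, 203644 bases from the neural adhesion gene NCAM2, went from 0.142 and 0.391 to 6.12 and 6.82, and NCAM2 itself had a log2 fold change of 2.13 (adjusted p = 2.73e-05, limma). MIR99AHG, host gene of a microRNA cluster, had no read in parental libraries and 2.70 and 3.22 in ERK5-ko libraries. AF241725.6 (2.68), LINC00317 (1.99), MGC39584 (1.31) and AL109763.2 (0.90) rose as well, as did AL133493.2 (1.55) near the other end of the chromosome. Of the 33 other genes tested that start in the first 25 Mb, 39.4% were higher and 18.2% lower, with a median of 0.23. Beyond 25 Mb, 28.0% of 150 were higher and 10% lower, with a median of 0.11. On chromosome 8, 9 of 23 lincRNAs were higher and 5 lower, and 30.1% of the 589 other genes were higher, with a median of 0.15. The part of these regional values in single lincRNAs was not tested.

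**Figure D3:**
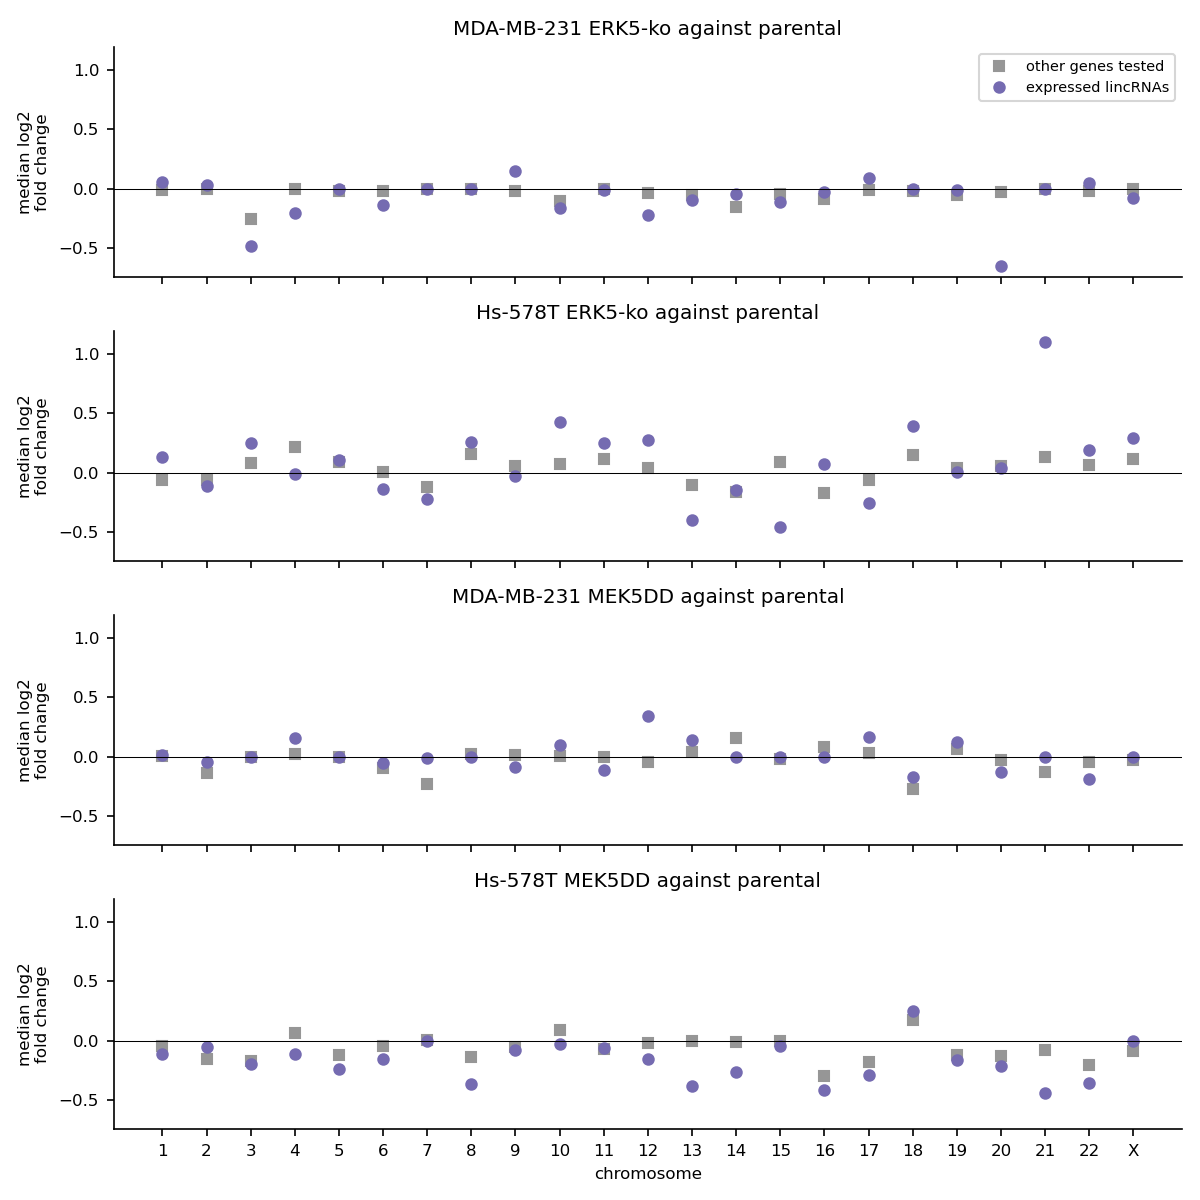
Median log2 fold change by chromosome of the expressed lincRNAs (purple circles) and of the other genes tested (grey squares) in the 4 comparisons with parental libraries. Chromosome 3 lies lowest among the grey squares of MDA-MB-231 ERK5-ko, at -0.25, and the lincRNAs of chromosome 21 lie highest in Hs-578T ERK5-ko, at 1.10.

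GS1-600G8.5 fell most in Hs-578T ERK5-ko libraries, from 58.6 and 47.3 in parental to 8.63 and 8.36 in ERK5-ko libraries, a log2 fold change of -2.56 (SE 0.20, adjusted p = 1.17e-05, limma). It was lower still in MEK5DD libraries, at 1.88 and 1.33, and the 3 groups did not overlap. RP11-175K6.1 (ENSG00000245812.2, chromosome 5, 159100483 to 159117478, plus strand), which starts 722 bases from EBF1, a transcription factor gene on the other strand, went from 6.20 and 5.69 to 1.43 and 1.14 (log2 fold change -1.86, adjusted p = 3.72e-06), while EBF1 had a log2 fold change of 0.15 (adjusted p = 0.439). RP11-175K6.1 and CTD-2314B22.1, named below, met the rule of choice through Hs-578T parental libraries alone, so both had to be higher there. MEG3, an imprinted RNA expressed from the maternal copy, was at 9.66 and 7.88 in parental, 3.65 and 2.52 in ERK5-ko and 34.2 and 10.3 in MEK5DD libraries and had no read in MDA-MB-231. Its fall passed the test (log2 fold change -1.38, adjusted p = 0.0243) and was lost without the first parental or either ERK5-ko library, with no filter on low values and with the 6 libraries of the line alone. LINC00900 (-1.63), CTD-2314B22.1 (-1.48) and RP1-122P22.2 (-1.61) completed the 6 largest falls, the last with 0 and 1.17 in its ERK5-ko libraries and lost without the first of them or the second parental library, and under the same 2 settings as MEG3.

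ERK5-ko changes were compared between the lines, whose parental controls are separate. Of the 347 lincRNAs, 20 passed in both (5.76%), beside 7.23% of all genes tested, while 26 passed in MDA-MB-231 alone and 140 in Hs-578T alone (7.49% and 40.3%, beside 6.48% and 28.3%). Passing in 1 line alone does not show a difference between them. The difference itself passed in lincRNAs in both directions, 49 with the more positive change in MDA-MB-231 against 97 in Hs-578T, beside 15.7% and 18.9% of all genes tested, and with the fold thresholds in 45 and 64, beside 12.2% and 7.21%. Of the 49 and 97, 6 and 40 met the rule of choice through a single group, and among the other 280 lincRNAs the counts were 43 and 57 (15.4% and 20.4%). Of the 20 that passed in both, 3 were higher in both, 6 lower in both, 2 rose in MDA-MB-231 but fell in Hs-578T, and 9 did the reverse, beside 0.718%, 0.961%, 1.99% and 3.57% of all genes tested. Across the 347 lincRNAs the log2 fold changes of the lines had a Pearson r of -0.00 and a Spearman rho of -0.07, and across the 13737 protein-coding genes tested -0.24 and -0.32. Genes are not independent replicates, many lincRNAs were near 0 in MDA-MB-231, and these values are descriptions.

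**Figure D4:**
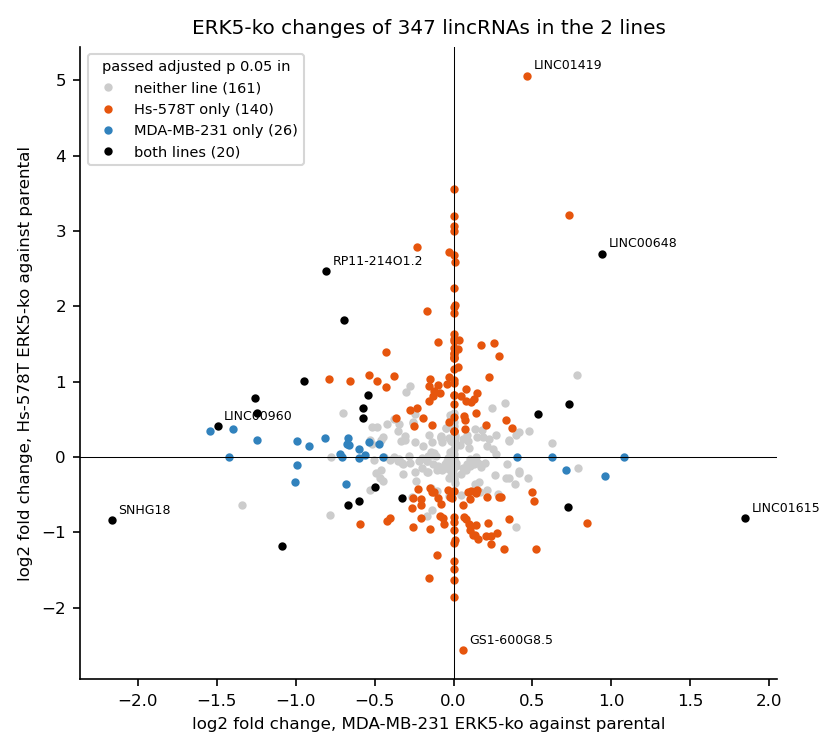
log2 fold change of each of the 347 lincRNAs in MDA-MB-231 (x axis) and Hs-578T (y axis) ERK5-ko libraries against the parental libraries of the line, coloured by the line in which the change passed. The 20 black points passed in both lines, and the column of orange points at 0 on the x axis holds lincRNAs with few or no reads in MDA-MB-231.

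The lincRNAs higher in ERK5-ko libraries of both lines were LINC00648, RP11-356J5.12 and MIR100HG. RP11-356J5.12 went from 1.84 and 1.25 to 2.98 and 2.75 in MDA-MB-231 and from 7.57 and 7.02 to 12.1 and 12.2 in Hs-578T (adjusted p = 0.0213 and 0.0116, limma), with no overlap in either line. MIR100HG, host gene of a microRNA cluster related to that of MIR99AHG, went from 2.498 and 2.15 to 3.44 and 3.75 and from 3.57 and 3.94 to 5.77 and 5.92 (adjusted p = 0.0342 and 0.0114). LINC00648 had log2 fold changes of 0.94 and 2.70. It met the rule of choice through Hs-578T ERK5-ko libraries alone, so its rise in Hs-578T was built into the choice. In MDA-MB-231, each of the 3 calls was lost without at least 1 of the parental or ERK5-ko libraries. In Hs-578T, that of RP11-356J5.12 was lost without the second parental or either ERK5-ko library, that of MIR100HG without the first parental or the second ERK5-ko library, and both with the 6 libraries of the line alone.

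Of the 6 lincRNAs lower in both lines, SNHG18 fell most in MDA-MB-231 and AC133644.2 most in Hs-578T. SNHG18 was more abundant in Hs-578T, at 42.5 and 41.9 in parental and 24.1 and 22.7 in ERK5-ko libraries (log2 fold change -0.84, adjusted p = 0.00221). AC133644.2 overlaps LINC00152 on the opposite strand, and whether the authors' counting used strand is not given in the sources used here, so its reads and those of LINC00152 cannot be told apart. It went from 1.27 and 1.33 to 0.490 and 0.221 in MDA-MB-231 and from 3.22 and 2.84 to 0.983 and 1.14 in Hs-578T, with log2 fold changes of -1.09 and -1.18, and the first was lost without the second library of either MDA-MB-231 group and with the 6 libraries of the line alone. RP11-111M22.3 (-0.67 and -0.64), RP11-1008C21.2 (-0.60 and -0.58) and RP11-12G12.7 (-0.50 and -0.40) fell by less, with adjusted p values between 0.022 and 0.049, and each lost a call under several alternatives. LINC01184 (-0.33 and -0.54) was the sixth.

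Others moved in opposite directions. LINC01615, raised in MDA-MB-231, went from 6.75 and 6.75 to 3.74 and 3.52 in Hs-578T (log2 fold change -0.81, adjusted p = 0.00108), and THBS2 nearby had a log2 fold change of -1.28 there (adjusted p = 0.00038). RP11-214O1.2 (ENSG00000266709.1, chromosome 17, 14303854 to 14305505, plus strand), which overlaps the heparan sulfate sulfotransferase gene HS3ST3B1 on the same strand, went from 4.19 and 3.71 to 2.12 and 1.97 in MDA-MB-231 and from 1.25 and 1.08 to 7.64 and 9.90 in Hs-578T. Its fall in MDA-MB-231 was lost without any 1 of the 4 libraries, HS3ST3B1 had log2 fold changes of 0.25 and 0.64, and reads of the pair may be shared. PRCAT47 (-0.95 and 1.009) and RP5-907D15.4 (-1.26 and 0.79) also fell in MDA-MB-231 and rose in Hs-578T, and RP11-66B24.2 (0.73 and -0.67) did the reverse. PRCAT47 met the rule of choice through Hs-578T ERK5-ko libraries alone, so its rise there was built into the choice. The fall of PRCAT47 was lost without the first parental or either ERK5-ko library, and that of RP11-66B24.2 without the first parental or first ERK5-ko library or with the 6 libraries of the line alone.

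**Figure D5:**
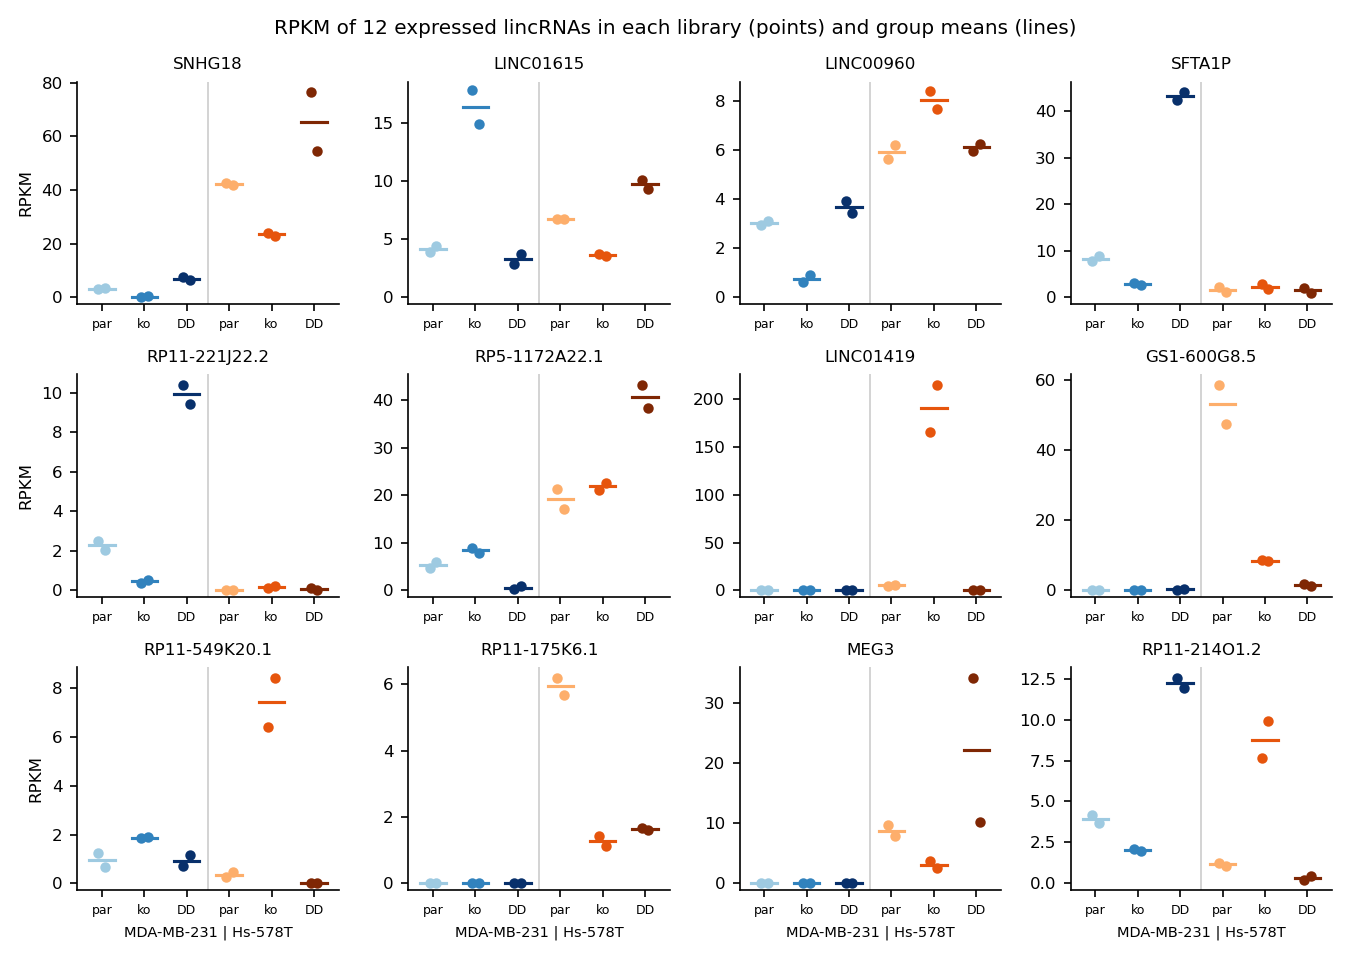
RPKM (linear axes from about 0, each panel on its own scale) of 12 expressed lincRNAs in every library, as points, with a line at each group mean, for parental (par), ERK5-ko (ko) and MEK5DD (DD) libraries of MDA-MB-231 (left, blue) and Hs-578T (right, orange to brown). SNHG18 is lowest in ERK5-ko and highest in MEK5DD libraries of both lines, LINC01615 rises in MDA-MB-231 ERK5-ko and falls in Hs-578T ERK5-ko, and the 2 MEG3 points of Hs-578T MEK5DD lie far apart, at 34.2 and 10.3.

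The MEK5DD comparisons use the same parental libraries as the ERK5-ko comparisons, so the 2 sets of changes are not independent. In MDA-MB-231, 68 lincRNAs were higher and 49 lower in MEK5DD than in parental libraries, 19.6% and 14.1% of the 347, beside 15.9% and 20.5% of all genes tested. With the fold thresholds, 49 were above 1.5-fold and 21 under 0.5-fold, beside 7.87% and 5.77%. Without lincRNAs that met the rule through a single group the counts were 52 and 40 (18.6% and 14.3%) of 280. RP11-54A9.1 rose most, from 1.10 and 1.38 in parental to 10.2 and 8.20 in MEK5DD libraries, a log2 fold change of 2.48 (SE 0.17, adjusted p = 2.01e-06, limma), and its ERK5-ko libraries were at 0.219 and 0.248. SFTA1P rose from 7.86 and 8.81 to 42.5 and 44.3 (log2 fold change 2.31, adjusted p = 0.000172), and RP11-221J22.2 from 2.51 and 2.05 to 10.4 and 9.45 (log2 fold change 1.91). In all 3 the ERK5-ko libraries lay below and the MEK5DD libraries above the parental ones. C15orf54 (2.29), LINC01322 (1.99) and RP11-60A8.1 (1.81) completed the 6 largest rises. RP11-54A9.1 and C15orf54 met the rule of choice through MDA-MB-231 MEK5DD libraries alone, so both had to be higher there.

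The lincRNA AL590235.1 (ENSG00000270090.5, chromosome 4, 3544555 to 3548796, plus strand, named as in GENCODE 29) fell most in MDA-MB-231 MEK5DD libraries, from 3.72 and 4.14 to 0.0683 and 0, at least 20.5-fold lower against the floor of 3 reads per library. RP5-1172A22.1 fell from 4.65 and 5.96 to 0.351 and 0.853 (log2 fold change -2.43, adjusted p = 1.02e-05), and LINC01411 from 6.57 and 7.56 to 1.24 and 0.842 (-2.31). WI2-87327B8.2 (-2.35) fell beside SLCO4A1, a transporter gene 39330 bases away (-1.44, adjusted p = 2.1e-05). CH17-360D5.2 (-2.12) and CH17-360D5.3 (-2.17) overlap on the same strand of chromosome 10 and may share reads.

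In Hs-578T, 27 lincRNAs were higher and 69 lower in MEK5DD than in parental libraries, 7.78% and 19.9% of the 347, beside 5.72% and 15.0% of all genes tested. Fitted on the 6 libraries of Hs-578T alone, 6 were higher and 24 lower. With the fold thresholds, 23 were above 1.5-fold and 30 under 0.5-fold, beside 3.03% and 1.67%. Without lincRNAs that met the rule through a single group the counts were 20 and 50 (7.14% and 17.9%) of 280. The medians were -0.18 over the lincRNAs and -0.08 over all genes tested, and median-ratio scaling would add 0.09 to each log2 fold change. GS1-600G8.5 had the largest fall, from 58.6 and 47.3 to 1.88 and 1.33, with a log2 fold change of -4.67 (SE 0.20, adjusted p = 1.3e-06, limma). LINC01419 (-2.14), MGC39584 (-2.11), CTA-392C11.1 (-2.04), RP11-30J20.1 (-1.96) and RP11-244B22.11 (-1.80) followed, the last lost with the libraries of the line alone. LINC01082 had no read in parental libraries and 2.59 and 2.89 in MEK5DD libraries, at least 8.71-fold higher against the floor. AC006262.5 (1.93), LINC00475 (1.49), RP11-211G23.2 (1.15) and CTD-3131K8.2 (0.97) rose too, of which the call of RP11-211G23.2 was lost under 5 settings, among them without the second parental library (0.68). RP5-1172A22.1 rose from 21.4 and 17.0 to 43.3 and 38.3, against its fall in MDA-MB-231, and the difference between the lines was -3.50 on the log2 scale (adjusted p = 1.88e-05). Chromosome 16, which holds the risen LINC01082, had 5 of 13 lincRNAs lower and 2 higher. Of its 749 other genes, 32.3% were lower and 1.87% higher, with a median of -0.29. The part of these values in single lincRNAs was not tested. Without the second parental library, 16 lincRNAs were higher.

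The MEK5DD change differed between the lines in 102 lincRNAs with the more positive change in MDA-MB-231 and 43 with the more positive change in Hs-578T, 29.4% and 12.4% of the 347, beside 19.5% and 15.9% of all genes tested, and with the fold thresholds in 101 and 27, beside 14.9% and 6.57%. Among the 280 lincRNAs that did not meet the rule through a single group the counts were 70 and 33 (25% and 11.8%). RP3-460G2.2 went from 0.628 and 0.479 in MDA-MB-231 parental to 2.95 and 3.20 in MEK5DD libraries and from 6.60 and 5.46 to 1.64 and 1.62 in Hs-578T. LINC01515 went from 0.114 and 0 to 1.06 and 1.119 in MDA-MB-231 and from 1.48 and 1.497 to 0.488 and 0.344 in Hs-578T. AC005276.1 went from 1.65 and 1.17 to 0 and 0.0433 in MDA-MB-231 and from 0.263 and 0.174 to 1.25 and 0.586 in Hs-578T.

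Set directly against each other, ERK5-ko and MEK5DD libraries differed in 66 lincRNAs higher and 94 lower in ERK5-ko in MDA-MB-231 (background 24.1% and 25.6% of all genes tested) and in 121 higher and 56 lower in Hs-578T (background 27.7% and 17.4%). Among the 280 lincRNAs that did not meet the rule through a single group the counts were 54 and 74 (19.3% and 26.4%) in MDA-MB-231. In Hs-578T they were 81 and 50 (28.9% and 17.9%), about the background. The lincRNAs left out were picked by the same RPKM values, and in Hs-578T they held 40 of the higher and 6 of the lower. With the fold thresholds the counts were 53 and 42 in MDA-MB-231 (background 16.1% and 6.08%) and 103 and 25 in Hs-578T (background 15.3% and 4.04%). Median-ratio scaling would shift the Hs-578T median by -0.12. In MDA-MB-231 the largest differences were LINC01411 (3.38), RP5-1172A22.1 (3.05) and AC005276.1 (2.82) upward and RP11-54A9.1 (-3.72), SFTA1P (-3.71) and RP11-221J22.2 (-3.45) downward. In Hs-578T they were LINC01419 (7.20), LINC01608 (4.36) and LINC00648 (4.09) upward and LINC00475 (-2.53), MEG3 (-2.45) and LINC01082 (-2.35) downward. Among these, RP11-54A9.1 met the rule of choice through MDA-MB-231 MEK5DD libraries alone and LINC00648 through Hs-578T ERK5-ko libraries alone. Both thus had to differ.

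lincRNAs with known roles were counted by list. Of 6 small nucleolar RNA host genes, 1 fell in MDA-MB-231 ERK5-ko and 2 fell in Hs-578T ERK5-ko libraries, while 1 rose in MDA-MB-231 MEK5DD and 3 rose in Hs-578T MEK5DD libraries. Over all genes tested, 8.33% and 17.9% fell and 15.9% and 5.72% rose in the same comparisons. SNHG18 was among them each time. SNHG19 went from 49.6 and 30.2 in Hs-578T parental to 22.6 and 21.2 in ERK5-ko (adjusted p = 0.0149, limma) and 76.0 and 56.6 in MEK5DD libraries (adjusted p = 0.032), and SNHG8 from 49.6 and 38.3 in parental to 90.5 and 68.3 in MEK5DD libraries (adjusted p = 0.00425). The list's median log2 fold change in Hs-578T was -0.49 for ERK5-ko and 0.64 for MEK5DD, beside 0.01 and -0.08 over all genes tested. In MDA-MB-231 it was 0.11 and 0.25, beside -0.03 and 0.00, so the list's ERK5-ko medians had opposite signs in the lines. SNHG9, SNHG15 and SNHG25 passed in none of the 4 comparisons with parental libraries. Whether reads of the small RNAs within these host genes entered their rows is not given in the sources used here.

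Of 14 microRNA host genes, 7 rose and 0 fell in Hs-578T ERK5-ko libraries, beside 17.6% and 17.9% of all genes tested, with a list median of 0.69 beside 0.01 over all genes. MIR143HG, host of a microRNA pair known from smooth muscle, went from 1.95 and 1.76 to 4.68 and 5.11 (log2 fold change 1.198, adjusted p = 3.62e-05). MIRLET7BHG, host of let-7 family microRNAs, went from 1.99 and 1.82 to 3.62 and 3.82, MIR4500HG from 0.147 and 0.270 to 2.38 and 2.35, and MIR137HG from 1.46 and 0.921 to 2.43 and 2.59. MIR99AHG, MIR100HG and MIR646HG (1.007) made up the 7. Of the 7, MIR143HG, MIRLET7BHG, MIR4500HG, MIR137HG and MIR99AHG met the rule of choice in this group alone and had to be higher there, so the count supports nothing about the list. In MDA-MB-231 ERK5-ko libraries 1 of the 14, MIR100HG, passed. MIR222HG, host of a microRNA pair that targets a cell cycle inhibitor, fell in MDA-MB-231 MEK5DD from 5.29 and 7.46 to 1.59 and 1.70 (adjusted p = 0.00484), and MIR22HG rose there (0.43, adjusted p = 0.0418). MIR503HG (0.00), MIR210HG (-0.47) and MIR4458HG (0.11) did not pass in Hs-578T ERK5-ko (adjusted p = 1, 0.102 and 0.728). PVT1, next to MYC, lay between 20.2 and 29.4 in all 12 libraries and passed in none of the 4 comparisons with parental libraries.

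Of 10 lincRNAs linked to tumours or to the epithelial-mesenchymal transition, 1 fell and none rose in MDA-MB-231 ERK5-ko, and 4 rose and 3 fell in Hs-578T ERK5-ko libraries, beside 8.33% lower and 5.37% higher of all genes in the first and 17.6% higher and 17.9% lower in the second. LINC00941 fell in MDA-MB-231 from 7.76 and 8.84 to 5.08 and 5.73 (adjusted p = 0.0103, limma) and rose in Hs-578T from 8.17 and 7.74 to 11.9 and 13.9 (adjusted p = 0.00188), a difference between the lines of -1.23 on the log2 scale (adjusted p = 0.000407). LINC01133 rose in Hs-578T from 9.61 and 6.92 to 15.8 and 19.6 and was at or under 0.126 in every MDA-MB-231 library. LUCAT1 (0.73) and LINC00973 (1.03) rose and LINC00511 (-0.48), TP53TG1 (-0.88) and MEG3 fell in Hs-578T ERK5-ko. LINC00707 rose in MDA-MB-231 MEK5DD, from 0.238 and 0.329 to 2.03 and 2.08 (log2 fold change 1.71). It met the rule of choice through these MEK5DD libraries alone, so it had to be higher there. JPX, an RNA of the X inactivation centre, and LINC01116 passed in neither ERK5-ko comparison. Of the cytoplasmic RNAs LINC00152, LINC00657 and EPB41L4A-AS1, only EPB41L4A-AS1 passed in any of the 4 comparisons with parental libraries, with a rise in MDA-MB-231 MEK5DD (0.49, adjusted p = 0.0243).

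By position, 69 of the 347 lincRNAs start within 5 kb of the start of a protein-coding gene on the other strand and run away from it. Some of these divergent pairs overlap at their starts. Another 31 overlap a protein-coding gene on the same strand, 15 overlap one on the other strand, 15 lie within 5 kb on the same strand, and 217 lie farther away or in other arrangements. Each was counted once, with same-strand overlaps put first, then divergent starts, then overlaps on the other strand. A lincRNA was paired with the gene of its arrangement, which is not always the nearest, and in other arrangements with the nearest protein-coding gene. Where both genes of a pair passed, they moved in the same direction in 49 of 64 pairs in Hs-578T ERK5-ko and 9 of 11 in MDA-MB-231 ERK5-ko. For MEK5DD this held in 36 of 48 in MDA-MB-231 and 16 of 19 in Hs-578T. Across the 277 pairs with both genes tested, Pearson's r of the log2 fold changes was 0.38 in MDA-MB-231 ERK5-ko, 0.39 in Hs-578T ERK5-ko, 0.20 in MDA-MB-231 MEK5DD and 0.33 in Hs-578T MEK5DD. For the 31 same-strand overlaps, of which 29 had a tested neighbour, it was, in MDA-MB-231 and then Hs-578T, 0.14 and 0.55 for ERK5-ko and 0.64 and 0.52 for MEK5DD, and reads of such pairs may be shared. For the 69 divergent pairs, 64 of which were tested, it was in the same order 0.41 and 0.30 for ERK5-ko and 0.34 and 0.40 for MEK5DD, and for 14 overlaps on opposite strands 0.41 and -0.59 for ERK5-ko and -0.26 and 0.04 for MEK5DD. Spearman's rho over all 277 pairs was, in the same order, 0.22 and 0.29 for ERK5-ko and 0.21 and 0.32 for MEK5DD. In MDA-MB-231 ERK5-ko it was 0.13 for the divergent pairs and 0.35 for the same-strand overlaps. These are descriptions across genes, which share libraries, position and regional shifts such as that of chromosome 3. The pairs include lincRNAs that met the rule of choice through a single group, and some protein-coding genes were paired with more than 1 lincRNA. No such values were worked out for pairs of other neighbouring genes, so none of them can be called particular to lincRNAs.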

How the data were processed

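Polyadenylated RNA of 12 libraries, 2 for each of 6 groups, was sequenced after a stranded mRNA kit. Per the submitters' processing notes, reads were trimmed with Trimmomatic 0.32, aligned to GRCh38 with TopHat2 2.1.1 and tested with DESeq2 1.12.4. The authors deposited 1 table of RPKM values per gene and library, with the Gene Type and coordinates of each gene. How reads of overlapping genes, near-identical copies and opposite strands were counted is not given in the sources used here.

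All 32152 genes gave whole reads in every library when the RPKM values were multiplied by a length and a library total (tolerance 0.0001 reads). The totals were 20248162 to 27791195 reads, and with totals 1% off none of 500 genes gave whole reads. The length was that of the same identifier in GENCODE 29 for 26563 genes. Among the 347 lincRNAs, the length of 246 was the rounded mean transcript length there. For the other genes the length was not matched to this annotation, so whole reads are no independent check of their counts. A count of 3 reads or fewer in each library of a group was taken as the floor. For those genes the floor rests on such counts.

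The 16857 genes of all types that reached an RPKM of 0.5 in 2 libraries or more were tested on log2(RPKM + 0.5) with limma 3.58.1 (R 4.3.3, mean-variance trend, 1 mean per group, 6 residual degrees of freedom), with Benjamini-Hochberg adjustment within each of 9 comparisons and a threshold of 0.05. Fold changes on this scale understate changes of low genes. The fold thresholds beside it were above 1.5 and below 0.5. A permutation of 2 against 2 libraries cannot give an exact p below 0.333, so no single-gene permutation test was run. Tables were handled with Python 3.11.15, pandas 2.3.3 and numpy 2.4.6. The test and the recovery of reads were tested on simulated data.

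The lincRNAs, the lists and the tests were chosen with earlier results of these data known. Named lincRNAs were the 10 with the highest mean, those with the largest changes past the threshold and without overlap between groups (up to 6 each way against parental libraries, 3 in other comparisons), up to 5 with shared and 3 with opposite ERK5-ko changes in each pattern, and every expressed lincRNA on lists of nuclear body RNAs, small nucleolar RNA and microRNA host genes, cytoplasmic RNAs and tumour-linked lincRNAs. LINC01184 and the lincRNAs named for lying on chromosomes 3 and 21 were chosen after their values were seen. Promoters came from RefSeq GRCh38.p14, matched to 148 of the 347. Alternatives were another pseudocount, filter, scaling, model, gene set, threshold or library set.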

Additional observations from a re-analysis of the deposited data

Results flagged for a closer look

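In 15 cases, the change of a named lincRNA against parental libraries differed between MDA-MB-231 and Hs-578T by a test of the difference itself (limma, Benjamini-Hochberg adjusted over all 16857 genes, 2 libraries per group). Each difference is the log2 fold change of MDA-MB-231 minus that of Hs-578T. Groups of 2 libraries are too small to single out a stray sample, and no cause of these differences was tested.

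For ERK5-ko, LINC01615 differed by 2.66 (adjusted p = 1.24e-05), with log2 fold changes of 1.85 (MDA-MB-231) and -0.81 (Hs-578T). GS1-600G8.5 differed by 2.62 (adjusted p = 0.000109) and RP11-175K6.1 by 1.86 (adjusted p = 4.31e-05). They had mean RPKM values of 0.0985 and 0 in MDA-MB-231 parental libraries, so that the difference holds mainly their fall in Hs-578T. RP11-66B24.2 differed by 1.39 (adjusted p = 0.00103), with 0.73 (MDA-MB-231) and -0.67 (Hs-578T). LINC01419 differed by -4.59 (adjusted p = 1.57e-06), AP000431.2 by -3.56 (adjusted p = 1.26e-06), where every MDA-MB-231 library is listed at 0, and RP11-214O1.2 by -3.27 (adjusted p = 1.83e-05). RP5-907D15.4 differed by -2.04 (adjusted p = 9.3e-05) and PRCAT47 by -1.96 (adjusted p = 0.000371). RP11-175K6.1, AP000431.2 and PRCAT47 each met the rule of choice through a single Hs-578T group, so their differences were partly built into the choice.

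For MEK5DD, GS1-600G8.5 differed by 5.12 (adjusted p = 1.62e-06), RP3-460G2.2 by 3.37 (adjusted p = 3.23e-05) and LINC01515 by 2.64 (adjusted p = 5.43e-05). RP5-1172A22.1 differed by -3.50 (adjusted p = 1.88e-05), with -2.43 (MDA-MB-231) and 1.07 (Hs-578T). AL590235.1 differed by -2.95 (adjusted p = 2.65e-06), with no Hs-578T library above an RPKM of 0.0792, and AC005276.1 by -2.80 (adjusted p = 0.000191).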

How the results depend on the processing

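Of the recomputed counts, 398 stayed within 1.5 times the reported one and 54 did not. Single calls were recomputed for the lincRNAs named by size of change or by their ERK5-ko pattern in both lines. None of these 98 calls turned its direction, though 23 lost the threshold under some setting. Calls named only from the lists of known lincRNAs or by chromosome were not among the 98. With the rule at an RPKM of 1 there were 553 lincRNAs, of which 104 fell in Hs-578T MEK5DD, and 74 (ERK5-ko) and 154 (MEK5DD) had a change more positive in MDA-MB-231. At an RPKM of 5 there were 179, of which 22 fell in MDA-MB-231 ERK5-ko, 45 rose and 41 fell in Hs-578T ERK5-ko, 42 rose and 26 fell in MDA-MB-231 MEK5DD, 41 fell in Hs-578T MEK5DD, 38 were higher and 54 lower in ERK5-ko than in MEK5DD libraries of MDA-MB-231, 62 and 34 in those of Hs-578T, and, among parental libraries, 102 were higher in Hs-578T and 56 in MDA-MB-231. The line differences at an RPKM of 5 were 28 and 50 for ERK5-ko and 58 and 25 for MEK5DD. These counts follow from fewer or more genes being counted. With the fold thresholds, 10, 19, 21 and 30 fell in the ERK5-ko libraries of MDA-MB-231, those of Hs-578T, and the MEK5DD libraries of each line in that order, 42 and 25 were lower in ERK5-ko than in MEK5DD libraries of MDA-MB-231 and of Hs-578T, and 64 (ERK5-ko) and 27 (MEK5DD) had a change more positive in Hs-578T. Without a filter, 4 rose in MDA-MB-231 ERK5-ko, 46 fell in Hs-578T ERK5-ko, 17 rose in Hs-578T MEK5DD and 30 had the more positive ERK5-ko change in MDA-MB-231. With the libraries of 1 line alone, 54 rose and 36 fell in Hs-578T ERK5-ko, and 6 rose and 24 fell in Hs-578T MEK5DD. With limma voom on the recovered reads, 57 (ERK5-ko, more positive in Hs-578T) and 62 (MEK5DD, more positive in MDA-MB-231) line differences passed. The cause was not tested.

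Leaving out each library in turn gave 1 to 15 higher and 16 to 48 lower in MDA-MB-231 ERK5-ko, 59 to 95 and 35 to 80 in Hs-578T ERK5-ko, 16 to 37 higher in Hs-578T MEK5DD, and 28 to 56 with the more positive ERK5-ko change in MDA-MB-231, where 32, 31 and 28 passed without the second library of parental MDA-MB-231, of its ERK5-ko group and of the Hs-578T ERK5-ko group. With a left-out library, the remaining one of its group is assumed to vary like the other groups. Deviations of libraries with the same replicate number had a correlation between 0.0494 and 0.387 over all genes tested, highest for Hs-578T parental and MEK5DD. No label ties these libraries, and whether they share a batch was not tested. With a replicate block, the lincRNAs that passed went from 46 to 53, 160 to 168, 117 to 129 and 96 to 113 in the 4 comparisons with parental libraries, and RP11-12G12.7 alone of the 98 recomputed calls lost the threshold. In 72 lincRNAs no MDA-MB-231 library held more than 3 reads, and in 21 no Hs-578T library did, so changes of these within that line were not detectable at this depth.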
